A study of Mus musculus with 3 samples.

Results

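Transcripts of 10 acetylcholine receptor genes were followed among the 32285 genes listed in single-cell libraries of the mouse medial prefrontal cortex (mPFC). The genes were taken by symbol and not by a rule on measured values, but they were chosen with earlier results of these data known. They comprised the muscarinic receptor genes Chrm1, Chrm2, Chrm3 and Chrm4 and the nicotinic subunit genes Chrna3, Chrna4, Chrna5, Chrna6, Chrna7 and Chrnb2. The tissue had been digested with papain and loaded on the 10x Genomics 3′ platform, in which each captured molecule carries a unique molecular identifier (UMI) and is counted once for its gene and cell. There was 1 library of females in estrus, 1 of females in diestrus and 1 of males, each pooling 2 mice that cannot be told apart. No transgene, treatment, strain or age was given in the labels of these groups. The series asked which molecular features of mPFC neurons go with the estrous cycle and with sex.

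Acetylcholine reaches the cortex mainly from basal forebrain axons and acts there on attention and arousal. Muscarinic receptors are G-protein-coupled: those encoded by Chrm1 and Chrm3 act through Gq and phospholipase C and close M-type potassium channels, whereas those encoded by Chrm2 and Chrm4 act through Gi/o, open inwardly rectifying potassium channels and reduce transmitter release. Nicotinic receptors are pentameric cation channels. In the brain the Chrna4 and Chrnb2 subunits form the main high-affinity heteromer, Chrna5 joins it as an accessory subunit, and Chrna7 forms homomers that pass calcium.

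The matrices held 14476, 18052 and 19555 barcodes for estrus, diestrus and male, with 152291602, 144738154 and 115632520 UMIs. After filters, 12390, 14323 and 15760 cells were retained, with medians of 6171, 4682 and 3916 UMIs. Between 68 and 97 barcodes were shared by a pair of libraries. The labels name the cells as mPFC neurons, but neurons were a minority. Cells gated as glutamatergic by 6 marker genes made up 11.6%, 12.6% and 11.2% of retained cells (1438, 1801 and 1764 cells), and those gated as GABAergic by 5 marker genes made up 1.69%, 3.78% and 3.85% (210, 542 and 607 cells). The glutamatergic gate had median depths of 39104, 26793 and 13001 UMIs per cell and the GABAergic gate 21422.5, 8767 and 6460, so depth moved with the library. In the GABAergic gate, the summed level of 4 haemoglobin and erythroid markers was 150.1, 1560 and 983 UMIs per 1000000 UMIs of nuclear genes (CPM), with all 4 above 0, and that of 6 oligodendrocyte markers 279, 887 and 812 CPM, with all 6 above 0. In the glutamatergic gate the same sums were 123, 111 and 159 CPM for erythroid and 242, 264 and 375 CPM for oligodendrocyte markers. Their part in the results was not tested.

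Subclass names stand for marker gates and mean cells like the named type: intratelencephalic (IT), extratelencephalic (ET), near-projecting (NP) and corticothalamic (CT) neurons of a cortical layer (L), L6b neurons, and interneurons named by Lamp5, Pvalb, Sncg, Sst or Vip. The gate set up for L6 IT Car3 neurons held no UMI of Car3 itself, which goes against that label, and it is called here the Nr4a2 gate after a marker it did carry, beside Ntng2, Gnb4 and Synpr. In estrus, diestrus and male, 30.3%, 25.5% and 26.2% of glutamatergic and 12.9%, 35.4% and 36.9% of GABAergic neurons fell into no subclass. L6b had 9 cells in estrus and was described but not tested, which left 12 subclasses in the test.

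Promoter windows are shown first for Chrm2 and Chrna7, which differed widely between subclasses, and for Chrna4 and Chrna5, which were both highest in L6 CT neurons among the gates tested. Each window runs from 250 bases before to 50 bases after the transcription start, 5′ to 3′ on the gene's strand, from RefSeq on GRCm38.p6. The Chrna4 window lies inside the GENCODE span of that gene (181018380 to 181043546, minus strand), so the annotations place its start differently. Of the 10 receptor genes, 8 had a window there. Capitals mark the GC box GGGCGG, read on both strands, which 35.7% of 32851 windows of this length in the mouse genome held.

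Chrm2, chr6:36387834-36388133, plus strand: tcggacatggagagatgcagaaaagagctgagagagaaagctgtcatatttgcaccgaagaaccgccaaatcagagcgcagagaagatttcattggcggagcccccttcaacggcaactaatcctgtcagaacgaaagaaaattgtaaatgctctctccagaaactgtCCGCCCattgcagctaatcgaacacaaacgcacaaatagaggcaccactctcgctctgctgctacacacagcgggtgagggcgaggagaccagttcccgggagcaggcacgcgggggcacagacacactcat
Chrna7, chr7:63212477-63212776, minus strand: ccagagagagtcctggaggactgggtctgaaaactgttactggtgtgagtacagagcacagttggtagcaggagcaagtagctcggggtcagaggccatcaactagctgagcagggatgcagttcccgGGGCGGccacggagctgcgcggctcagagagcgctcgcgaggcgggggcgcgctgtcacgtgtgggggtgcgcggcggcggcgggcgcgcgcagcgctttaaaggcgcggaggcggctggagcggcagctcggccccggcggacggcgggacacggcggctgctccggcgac
Chrna4, chr2:181039128-181039427, minus strand: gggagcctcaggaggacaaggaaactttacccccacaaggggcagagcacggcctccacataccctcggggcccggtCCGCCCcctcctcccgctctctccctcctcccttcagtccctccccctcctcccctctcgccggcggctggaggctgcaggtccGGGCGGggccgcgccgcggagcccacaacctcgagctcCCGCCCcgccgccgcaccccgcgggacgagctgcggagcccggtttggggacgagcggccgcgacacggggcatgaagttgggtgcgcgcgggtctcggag
Chrna5, first start, chr9:54980630-54980929, plus strand: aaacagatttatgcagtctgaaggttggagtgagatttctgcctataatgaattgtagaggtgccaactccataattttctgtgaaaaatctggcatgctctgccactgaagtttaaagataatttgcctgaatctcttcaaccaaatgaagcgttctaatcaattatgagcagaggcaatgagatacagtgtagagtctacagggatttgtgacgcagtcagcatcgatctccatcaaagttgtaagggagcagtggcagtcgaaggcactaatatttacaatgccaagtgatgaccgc
Chrna5, second start, chr9:54981238-54981537, plus strand: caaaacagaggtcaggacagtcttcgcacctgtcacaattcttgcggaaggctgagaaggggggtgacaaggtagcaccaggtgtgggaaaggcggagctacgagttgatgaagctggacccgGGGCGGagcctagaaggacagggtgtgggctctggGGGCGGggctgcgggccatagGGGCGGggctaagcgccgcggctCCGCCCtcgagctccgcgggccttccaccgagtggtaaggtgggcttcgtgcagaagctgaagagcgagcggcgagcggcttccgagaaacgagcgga

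The Chrm2 window had a GC content of 52.7%, the same as the median of all windows, and 1 GC box. The windows of Chrna7 (70.0% GC, 1 GC box), Chrna4 (74.3%, 3 GC boxes) and the downstream start of Chrna5 (65.0%, 4 GC boxes) were richer in G and C, whereas the upstream start of Chrna5 had 41.3% and no GC box. None of the 5 windows held the TATA box TATAAA (13.6% of all windows) or the cAMP response element TGACGTCA (1.79%), on either strand. The CCAAT box (37.4% of all windows) occurred in the Chrm2 window alone of these. The E-box CANNTG (72.3%) occurred in neither the Chrm2 nor the Chrna4 window, while the Chrna7 window and both Chrna5 windows held 2 each. A match describes letters in a window, not a bound site.

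**Figure D1:**
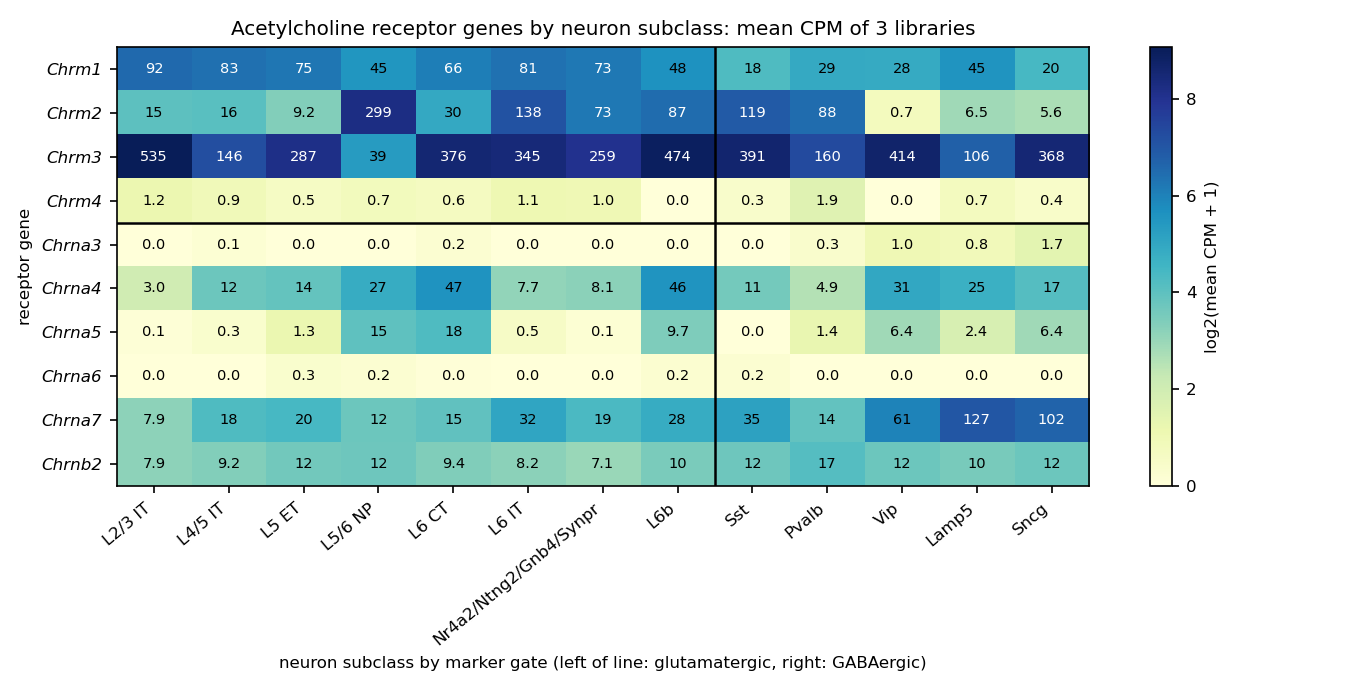
Mean CPM over the 3 libraries of each receptor gene (rows) in each neuron subclass (columns), with colour on a log2(CPM + 1) scale and muscarinic genes above the line. Chrm3 and Chrm1 were read in every subclass, Chrm2 was highest in L5/6 NP neurons, Chrna5 in L6 CT and L5/6 NP neurons and Chrna7 in Lamp5 and then Sncg neurons, and Chrm4, Chrna3 and Chrna6 stayed below 2 CPM throughout.

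Among the receptor genes tested, glutamatergic and GABAergic neurons differed most in Chrm1 and Chrna7. Chrm1 stood at 69.0, 77.6 and 79.4 CPM in glutamatergic and at 22.1, 25.1 and 31.0 CPM in GABAergic neurons in estrus, diestrus and male. Chrna7 stood at 11.5, 20.3 and 20.3 CPM in glutamatergic and at 42.0, 63.3 and 64.0 CPM in GABAergic neurons. The classes did not overlap in either gene, with Chrm1 on the glutamatergic and Chrna7 on the GABAergic side. The log2 difference, glutamatergic over GABAergic, was 1.67 for Chrm1 (SE 0.09, adjusted p = 7.2e-07) and −1.58 for Chrna7 (SE 0.09, adjusted p = 1.2e-06). Of the 8 receptor genes with enough UMIs to test, 3 were higher in glutamatergic neurons and 1 was lower, where 49.9% of all genes were called (26.5% higher and 23.4% lower), so the receptor genes were called about as often as genes in general. The median receptor difference was 0.29, against 0.02 over all genes.

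The other calls were smaller. Chrna5 was at 3.19, 6.20 and 4.83 CPM in glutamatergic and at 1.81, 2.31 and 3.51 CPM in GABAergic neurons, from 9, 17 and 24 UMIs in the latter (log2 difference 1.04, SE 0.27, adjusted p = 0.0098), and the call was lost without the diestrus library (adjusted p = 0.13) and without library as a block (adjusted p = 0.051). Chrna4 was at 12.9, 20.5 and 21.3 CPM in glutamatergic and at 14.3, 15.1 and 14.5 CPM in GABAergic neurons, so that it was lower in the glutamatergic gate in estrus and higher in the other libraries. Its fitted difference of 0.44 (SE 0.16, adjusted p = 0.041) was lost without the diestrus or the male library, when the fit was scaled by total UMIs (0.30, adjusted p = 0.13), with DESeq2, without library as a block, in neurons of at least 5000 UMIs, with Leiden clusters and without doublet removal. The scaling factors of the main fit moved the median of all genes by 0.14 toward the glutamatergic side. Chrm2 (−0.03, SE 0.13), Chrm3 (0.14, SE 0.19), Chrm4 (0.62, SE 0.43) and Chrnb2 (−0.33, SE 0.15) did not pass. Chrnb2 was lower in glutamatergic (7.93, 9.63 and 9.28 CPM) than in GABAergic neurons (11.1, 12.1 and 14.1 CPM) in every library. The Chrnb2 difference was called with stricter gates, with named subclasses only and when scaled by total UMIs. Chrm3 was lower in glutamatergic than in GABAergic neurons in estrus (178 against 269.8 CPM) and higher in diestrus (331 against 319 CPM) and male (390.5 against 263 CPM). Without the estrus library the Chrm3 difference was 0.44 and was called, and without the male library it was −0.14.

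**Figure D2:**
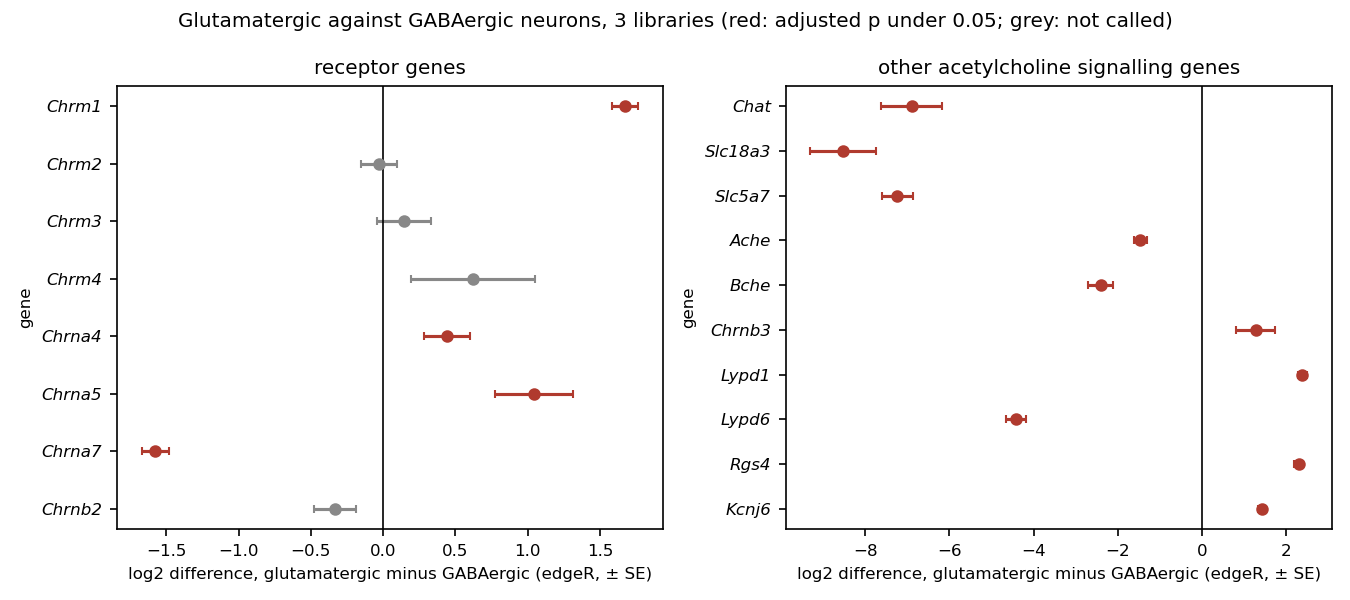
Log2 difference (horizontal axis) between glutamatergic and GABAergic neurons with its standard error, for the receptor genes tested (left) and for other acetylcholine signalling genes (right), where positive values are higher in glutamatergic neurons. Chrm1 stands furthest to the glutamatergic side and Chrna7 furthest to the GABAergic side among the receptor genes.

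Within each class, every subclass was then set against the mean of the other subclasses of its class. Chrm4, Chrna3 and Chrna6 were too low to test, and the remaining 7 genes gave 84 tests over the 12 subclasses. Of these, 44 passed at an adjusted p below 0.05, 25 of them higher and 19 lower, against 22.9% of all gene tests in these contrasts (12.8% higher and 10.1% lower). By subclass, 6 of the 7 genes were called in L2/3 IT neurons (30.4% of all genes), 5 in L5/6 NP (39.4%), 5 in Sst (19.3%), 4 in L6 CT (30.4%), 4 in L6 IT (18.8%), 4 in Lamp5 (17.8%), 4 in Pvalb (22.5%) and 4 in Vip neurons (16.0%). There were 3 calls in L4/5 IT (19.8%) and 3 in Sncg (18.8%), and 1 each in L5 ET (27.8%) and in the Nr4a2 gate (13.9%). Chrm2, Chrm3 and Chrna4 were called in the most subclasses (10, 10 and 7 of 12) and Chrnb2 in none. Adjusted p-values are from edgeR's quasi-likelihood test with Benjamini-Hochberg adjustment over all genes. They measure how differences between subclasses vary over these 3 libraries once a library term is fitted. That spread is shared by all subclasses in the fit and is not the spread of a single subclass. The libraries also differ in sex and cycle stage.

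Chrm1, the Gq-coupled receptor gene typical of pyramidal neurons (chromosome 19, 8663789 to 8683587, GRCm38), was read in all subclasses and showed a shallow gradient. In L2/3 IT neurons it stood at 86.0, 99.4 and 91.9 CPM in estrus, diestrus and male (92.4 ± 6.71, SD, n = 3). It stood at 60.5, 66.2 and 69.9 CPM in L6 CT and at 39.1, 49.98 and 45.9 CPM in L5/6 NP neurons. From L2/3 IT down to L6 CT neurons each subclass overlapped the next in the order, and L5/6 NP neurons lay below L6 CT neurons in every library. The difference from the other glutamatergic subclasses was 0.43 on the log2 scale in L2/3 IT (SE 0.07, adjusted p = 2.8e-05) and −0.84 in L5/6 NP neurons (SE 0.10, adjusted p = 1.7e-08). Among interneurons Chrm1 was highest in Lamp5 neurons, at 43.4, 37.5 and 55.2 CPM (log2 difference 0.90, SE 0.16, adjusted p = 1.0e-04), and lowest in Sst neurons, at 14.0, 19.8 and 21.1 CPM (−0.66, SE 0.16, adjusted p = 0.0018). Lamp5 interneurons and L5/6 NP neurons overlapped (45.4 ± 9.04 and 45.0 ± 5.52 CPM), while Pvalb, Vip, Sncg and Sst interneurons averaged 18.3 to 29.3 CPM. Cells gated as erythroid averaged 24.7 CPM of Chrm1 (10.1 to 32.3 by library), so these interneuron levels were no higher than in a non-neuronal gate. The other non-neuronal gates averaged 4.77 CPM (oligodendrocytes) to 12.9 CPM (fibroblasts). The part of RNA from other cells in the interneuron values was not tested. The Sst call was lost without the estrus (−0.53, adjusted p = 0.097) or the male library (−0.56, adjusted p = 0.07). The L4/5 IT difference of 0.24 was also called but was lost without the diestrus or the male library.

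Chrm3, the other Gq-coupled gene and the longest of the set (485 kb on chromosome 13, 9875486 to 10360847), was abundant in most subclasses and scarce in L5/6 NP neurons. It reached 387, 541 and 677 CPM in L2/3 IT neurons (535 ± 145) and 279, 396 and 453 CPM in L6 CT neurons. In L5/6 NP neurons it was at 7.23, 54.1 and 55.2 CPM, from 15, 159 and 95 UMIs. The L5/6 NP range lay below that of every other subclass, the next being Lamp5 neurons at 80.4, 118 and 121 CPM. Against the other glutamatergic subclasses the log2 difference was −3.04 in L5/6 NP (SE 0.25, adjusted p = 5.8e-12), 1.503 in L2/3 IT (SE 0.16, adjusted p = 1.8e-09) and 0.93 in L6 CT neurons (SE 0.16, adjusted p = 2.4e-05). On summed UMIs, L5/6 NP neurons held 0.12 times the Chrm3 level of the other glutamatergic subclasses, with 0.031 in estrus as the lowest and 0.151 in diestrus as the highest of the libraries. L2/3 IT neurons held 1.91 times (1.80 to 2.38 by library) and L6 CT neurons 1.35 times (1.14 to 1.33 by library). The fitted values of L2/3 IT and L6 CT neurons are larger because they average the other gates on the log scale, where the low L5/6 NP gate weighs heavily. The summed L6 CT value lies above that of every library, as it pools libraries with unequal shares of L6 CT cells. L6 IT neurons were also called higher, yet stood at 0.87, 1.41 and 0.94 times the others in estrus, diestrus and male. Among interneurons, Sst (386, 411 and 376 CPM), Vip (340.2, 469 and 432 CPM) and Sncg neurons (241, 523 and 339 CPM) were higher, with log2 differences of 0.88, 0.93 and 0.68, and Lamp5 (−1.61) and Pvalb neurons (117, 205 and 157 CPM, −0.88) were lower. The Sncg call was lost without the diestrus (0.49, adjusted p = 0.27) or the male library (0.74, adjusted p = 0.053), and in estrus Sncg neurons lay below the other interneurons (241 against 281 CPM). Without library as a block, none of the Sst, Vip, Sncg and Pvalb calls of Chrm3 was made. Intronic and antisense transcripts listed as separate genes overlap Chrm3 (Gm47405, Gm47404 and Gm26861), and how their reads were assigned is not stated.

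Chrm2, a Gi/o-coupled receptor gene (140.3 kb on chromosome 6, 36388084 to 36528414), was concentrated in a few subclasses. It stood at 289.8, 276 and 329.9 CPM in L5/6 NP neurons (299 ± 28.0), from 1981 UMIs over the libraries. The next subclass, L6 IT, had 98.5, 173 and 141 CPM, and the 2 ranges did not overlap. L2/3 IT (16.2, 14.4 and 14.9 CPM), L4/5 IT (14.3, 15.8 and 18.0 CPM) and L5 ET neurons (7.45, 13.7 and 6.36 CPM) were low. Chrm2 thus reversed the order of Chrm3 at its ends: the subclass richest in Chrm2 was the poorest in Chrm3, and the subclass richest in Chrm3 was among those with little Chrm2. The log2 difference from the other glutamatergic subclasses was 3.27 in L5/6 NP (SE 0.14, adjusted p = 1.1e-19), 2.02 in L6 IT (SE 0.14, adjusted p = 9.6e-13), −1.62 in L2/3 IT (SE 0.20), −1.59 in L4/5 IT (SE 0.20) and −2.42 in L5 ET neurons (SE 0.24). On summed UMIs the L5/6 NP level was 7.66 times that of the other glutamatergic subclasses, with 5.69 and 10.1 as the lowest and highest of the libraries.

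In interneurons Chrm2 was a gene of the Sst and Pvalb gates. It was at 88.1, 113 and 155 CPM in Sst and at 91.2, 107 and 64.7 CPM in Pvalb neurons, against 0, 4.93 and 14.5 CPM in Lamp5, 3.64, 5.35 and 7.68 CPM in Sncg, and 1 UMI in all 3 libraries in Vip neurons. The Sst and Pvalb ranges overlapped each other and lay above those of the other interneuron gates. On summed UMIs, Sst neurons had 3.94 times the level of the other interneurons (3.45 to 5.05 by library; fitted log2 difference 4.27, SE 0.31, adjusted p = 5.9e-13), and Pvalb neurons 1.52 times (0.848 to 2.31 by library; fitted 3.63, SE 0.36, adjusted p = 1.7e-09). The fitted values average the other gates on the log scale, where the near-empty Vip gate weighs heavily, and they are no bounds. A long noncoding RNA listed as 9330158H04Rik lies on the opposite strand within Chrm2. No source used here says whether counting used strand, so reads of the pair cannot be told apart.

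Chrm4, the other Gi/o-coupled receptor gene (1.44 kb on chromosome 2, 91927249 to 91928688), was near the limit of detection. It gave 83, 26 and 21 UMIs in glutamatergic neurons, or 1.47, 0.51 and 0.68 CPM, and 5, 3 and 3 UMIs in GABAergic neurons. Subclass means ran from 0 to 1.89 CPM, with no UMI in the L6b and Vip gates. From so few UMIs no order of the subclasses could be read. The RefSeq promoter window of Chrm4 ends at 91922238, before this span begins. How many Chrm4 reads fell outside the span and went uncounted was not tested.

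**Figure D3:**
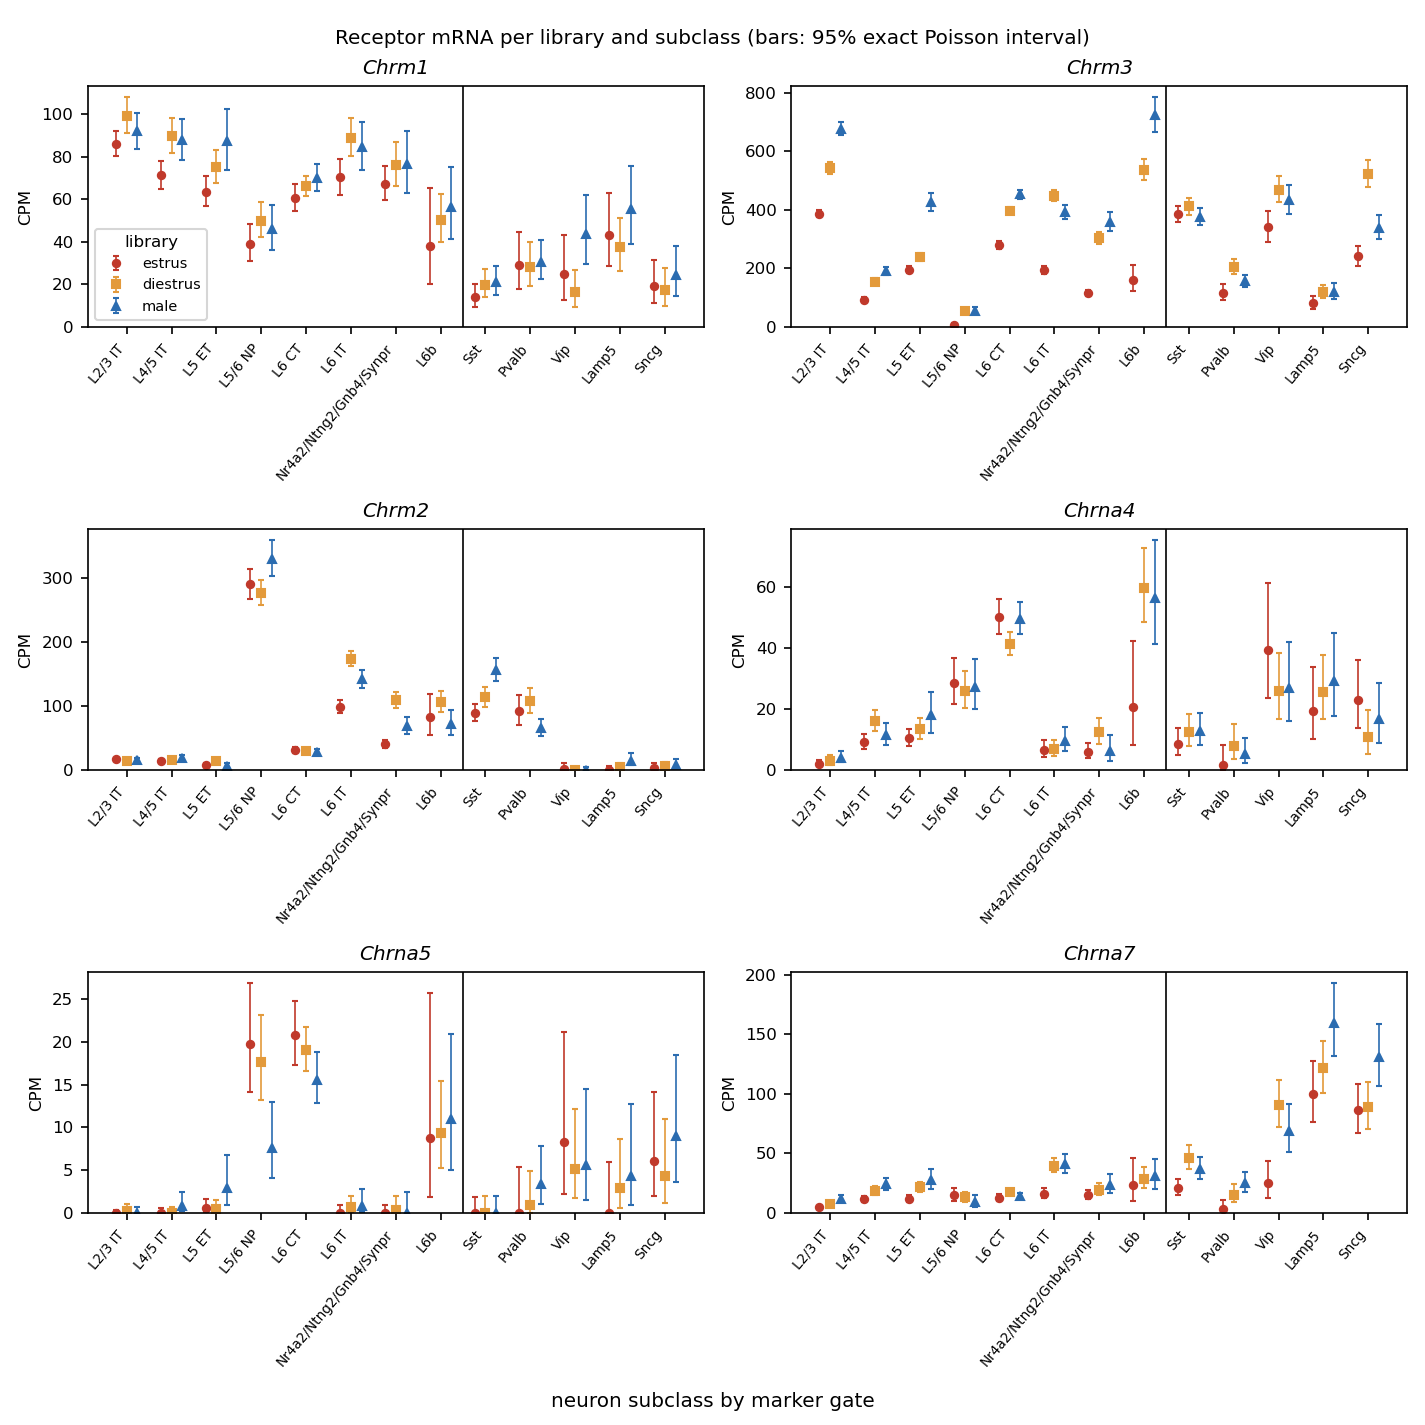
CPM of 6 receptor genes in each subclass and library, with 95% exact Poisson intervals that cover counting error only. L5/6 NP neurons hold the highest Chrm2 and the lowest Chrm3 points, L6 CT neurons the highest Chrna4 and Chrna5 points in the glutamatergic gates that were tested, and Lamp5 neurons the highest Chrna7 point in each library.

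Chrna4, the alpha subunit of the high-affinity heteromer (chromosome 2, 181018380 to 181043546), was highest in L6 CT neurons among the gates tested. It stood at 50.1, 41.2 and 49.5 CPM in L6 CT (47.0 ± 4.96) and at 28.4, 25.8 and 27.3 CPM in L5/6 NP neurons. In L2/3 IT neurons it was at 2.04, 2.88 and 4.03 CPM. L6 CT and L5/6 NP neurons did not overlap, and both lay above L2/3 IT neurons in every library. The log2 difference was 2.31 in L6 CT (SE 0.13, adjusted p = 3.6e-16), 1.31 in L5/6 NP (SE 0.18, adjusted p = 2.8e-07), −2.41 in L2/3 IT (SE 0.22, adjusted p = 1.3e-10) and −0.78 in L6 IT neurons (SE 0.21, adjusted p = 0.0068). On summed UMIs L6 CT neurons held 4.66 times the level of the other glutamatergic subclasses (3.47 to 6.52 by library). The L6 IT call was lost without the diestrus library (−0.62, adjusted p = 0.12). The untested L6b gate gave 20.5, 59.7 and 56.4 CPM, above L6 CT neurons in diestrus and male.

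Interneurons also differed in Chrna4. It was at 39.2, 25.9 and 26.8 CPM in Vip and at 19.3, 25.6 and 29.1 CPM in Lamp5 neurons, against 1.45, 7.98 and 5.33 CPM in Pvalb neurons. Vip (log2 difference 1.26, SE 0.28, adjusted p = 0.0013) and Lamp5 neurons (0.89, SE 0.28, adjusted p = 0.023) were higher than the other interneurons and Pvalb neurons lower (−1.87, SE 0.35, adjusted p = 1.2e-04). With clusters in place of gates the Vip (0.69, adjusted p = 0.097) and Lamp5 calls (0.51, adjusted p = 0.29) were lost and Pvalb neurons were too few to test. The Lamp5 call was also lost without the diestrus or the male library.

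Chrnb2, the beta subunit that assembles with Chrna4 (chromosome 3, 89746195 to 89764632), varied little between subclasses of a class, though it was lower in glutamatergic than in GABAergic neurons in each library. Subclass means ran from 7.05 CPM in the Nr4a2 gate to 16.8 ± 1.58 CPM in Pvalb neurons, and no subclass passed the test. The highest and lowest log2 differences were 0.48 in Pvalb neurons (SE 0.27) and −0.41 in the Nr4a2 gate (SE 0.23). The 2 subunit genes thus did not share a pattern over these gates: Chrna4 spanned 2.98 to 47.0 CPM in the subclass means. Chrnb2 overlaps Adar on the opposite strand.

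Chrna5, the accessory subunit gene (chromosome 9, 54980880 to 55007779), was restricted to few subclasses, and its windows are the last pair printed above. L6 CT neurons held 124, 219 and 109 UMIs, or 20.8, 19.1 and 15.6 CPM. L5/6 NP neurons held 41, 52 and 13 UMIs, or 19.8, 17.7 and 7.55 CPM. L2/3 IT neurons held 1 UMI in all 3 libraries, the Nr4a2 gate 1, L4/5 IT neurons 3 and L6 IT neurons 5. The untested L6b gate held 27 UMIs, at 8.79, 9.33 and 11.03 CPM. The L6 CT and L5/6 NP ranges overlapped, and both lay above those of L2/3 IT, L4/5 IT, L5 ET and L6 IT neurons and of the Nr4a2 gate. On summed UMIs L6 CT neurons had 10.8 times the level of the other glutamatergic subclasses (8.23 to 15.1 by library; fitted log2 difference 5.14, SE 0.33, adjusted p = 3.2e-14), and L5/6 NP neurons 3.04 times (1.36 to 5.57; fitted 4.74, SE 0.40, adjusted p = 2.5e-11). The fitted values again rest on gates with almost no UMIs and are no bounds. Chrna5 also passed the count filter only through gates where it was high, namely L6 CT, L5/6 NP, Vip and Sncg neurons. Its p-values are therefore not independent of how the gene entered the test.

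Among interneurons Chrna5 was read in Sncg (16 UMIs; 6.06, 4.28 and 8.97 CPM) and Vip neurons (13 UMIs; 8.25, 5.18 and 5.63 CPM) and gave no UMI in Sst neurons in any library. Taking 3 counts over the group as the limit that a count of 0 allows, Sst neurons were at least 7.62-fold lower than the other interneurons, which stood at 3.96 CPM. The Sst difference was called (adjusted p = 0.0022), as were Sncg (adjusted p = 0.020) and Vip neurons (adjusted p = 0.038). The Sncg and Vip calls were lost without the estrus or the diestrus library. All 3 calls share the limit of the count filter given above for Chrna5.

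Chrna7, the homomeric subunit gene (114 kb on chromosome 7, 63098692 to 63212569), was highest in Lamp5 and Sncg interneurons. Lamp5 neurons were at 99.7, 121 and 159.8 CPM (127 ± 30.5) and Sncg neurons at 86.1, 88.8 and 131 CPM. Vip neurons were at 24.7, 90.2 and 69.0 CPM, Sst neurons at 21.0, 46.0 and 36.8 CPM and Pvalb neurons at 2.89, 15.1 and 24.7 CPM. Lamp5 and Sncg overlapped each other, and both lay above Sst and Pvalb neurons in every library. The log2 difference from the other interneurons was 1.51 in Lamp5 (SE 0.20, adjusted p = 4.2e-07), 1.18 in Sncg (SE 0.20, adjusted p = 3.7e-05), −0.79 in Sst (SE 0.21, adjusted p = 0.0056) and −2.26 in Pvalb neurons (SE 0.27, adjusted p = 7.1e-08). The Sst call of Chrna7 was lost without the male library (−0.57, adjusted p = 0.21), without library as a block (adjusted p = 0.13) and with stricter gates (−0.26, adjusted p = 0.57). Sncg neurons were too few to fit under the stricter gates. Among glutamatergic gates L6 IT neurons were higher (16.2, 39.6 and 41.3 CPM; 1.13, SE 0.17, adjusted p = 6.9e-06) and L2/3 IT neurons lower (4.59, 7.30 and 11.9 CPM; −1.27, SE 0.21, adjusted p = 1.0e-05).

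Chrna3, a subunit gene of autonomic ganglia and the habenula, and Chrna6, a subunit gene of midbrain dopamine neurons, were almost absent from the counts. Chrna3 gave 2, 3 and 1 UMIs in glutamatergic and 2, 7 and 4 in GABAergic neurons, and Chrna6 gave 1, 4 and 2 and 1, 0 and 0. The highest Chrna3 subclass, Sncg neurons, held 4 UMIs, a mean of 1.68 CPM. Chrna3 was below the count filter of the class comparison. Its pooled level was 0.68 CPM in GABAergic and 0.043 CPM in glutamatergic neurons, and the class difference was called without the filter on low counts, without the estrus library and without doublet removal. Chrna6 was too low for any order to be read.

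To compare single cells at equal depth, each was thinned to 5000 UMIs and shallower cells were left out. 64.4% (73 cells, exact 95% interval 52.3 to 75.3), 62.2% and 63.5% of L5/6 NP neurons had a Chrm2 UMI in estrus, diestrus and male, against none of 30, 61 and 50 Vip neurons. Unthinned, the L5/6 NP shares were 78.2%, 74.9% and 71.8%, at median depths of 26239.5, 17482 and 14607 UMIs. Of the 1753, 796 and 246 microglia deep enough to be thinned, which should lack the gene, 0.228%, 0.251% and 1.22% had a Chrm2 UMI. Over all microglia, at median depths of 5299, 4479 and 3280 UMIs, the unthinned shares were 0.287%, 0.388% and 0.749%. Shares of cells with a Chrm3 UMI were 69.3%, 86.7% and 92.6% in L2/3 IT neurons (95.7%, 93.3% and 90.6% unthinned) and 2.74%, 7.87% and 17.6% in L5/6 NP neurons (7.69%, 10.8% and 24.8% unthinned), with 0.285%, 1.01% and 5.69% in thinned microglia (0.479%, 1.51% and 2.34% unthinned). A Chrna5 UMI was found in 8.51%, 10.997% and 6.48% of L6 CT neurons (39.1%, 32.4% and 20.4% unthinned) against 0.114%, 0.126% and 1.22% of thinned microglia (0.0639%, 0.215% and 0.22% unthinned). A Chrna7 UMI was found in 37.5%, 45.1% and 50% of Lamp5 neurons (70.0%, 55.9% and 38.2% unthinned) against 3.28%, 4.42% and 3.90% of L2/3 IT neurons and 0.171%, 0.251% and 0.407% of thinned microglia (0.192%, 0.215% and 0.264% unthinned). Thinning left out 5, 40 and 32 L5/6 NP neurons, 4, 13 and 67 L2/3 IT neurons, 4, 26 and 64 L6 CT neurons, 6, 17 and 36 Lamp5 neurons, 4, 32 and 26 Vip neurons and 1378, 1526 and 2023 microglia.

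Outside neurons, oligodendrocyte precursors held Chrm2 (21.1, 33.3 and 36.5 CPM), Chrna4 (22.4, 25.4 and 30.4 CPM) and Chrna7 (15.1, 12.7 and 10.3 CPM), and astrocytes held Chrna7 (7.73, 12.5 and 10.5 CPM). In microglia the same genes were at 0.591, 0.951 and 3.52 CPM for Chrm2, 0.414, 2.19 and 2.71 CPM for Chrna4 and 0.532, 0.475 and 0.812 CPM for Chrna7. The oligodendrocyte precursor and astrocyte levels lay above the microglial ones in every library. Fibroblast-like cells gave no Chrm3 UMI in estrus (40 cells, upper limit 13.9 CPM) but 116 in diestrus (102 CPM, interval 84.3 to 122, 187 cells) and 384 in male (405 CPM, 365 to 447, 144 cells). With 1 library each, this difference could not be tested.

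By Pearson correlation of log2(mean CPM + 1) over the 12 subclasses tested, the genes most like Chrm1 among 9394 candidates were Itpka (0.98), Lzts1 (0.97) and Slc16a7 (0.97). Those most like Chrna7 were Rpl10-ps3 (0.94), Sema3c (0.93) and Rps15 (0.92), and those most like Chrna4 were Mms19 (0.90), Fads1 (0.89) and Ccdc28b (0.86). For Chrm2 they were Chmp4b (0.91), the overlapping 9330158H04Rik (0.86) and Gpx1 (0.84), and for Chrm3, Kif21b (0.78), Stk32c (0.77) and Psmb10 (0.77). The subclasses share libraries and differ in depth, so these values are descriptions.

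The genes that make and clear acetylcholine sat on the GABAergic side. Of 39 other acetylcholine signalling genes, 30 could be tested, and 11 were higher and 10 lower in glutamatergic neurons, where 26.5% of all genes were higher and 23.4% lower, with a median difference of 0.12 against 0.02 over all genes. All 5 genes of synthesis, transport and breakdown were lower in glutamatergic neurons. Slc5a7, the choline transporter, was at 15.1, 15.3 and 14.2 CPM in GABAergic neurons and gave 2, 8 and 2 UMIs in glutamatergic neurons. Chat, which makes acetylcholine, gave 7, 11 and 13 UMIs in GABAergic and 0, 1 and 0 in glutamatergic neurons, and Slc18a3, the vesicular transporter, gave 8, 14 and 16 against 0, 0 and 0. Ache, which breaks acetylcholine down, was at 57.9, 52.6 and 44.1 CPM in GABAergic and 13.7, 20.0 and 17.4 CPM in glutamatergic neurons (log2 difference −1.47, SE 0.15, adjusted p = 4.1e-05).

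The synthesis genes were highest in the Vip gate, which held 21 of the 31 Chat UMIs, 22 of the 38 Slc18a3 UMIs and 137 of the 285 Slc5a7 UMIs of the GABAergic gate. Slc5a7 reached 55.7, 64.3 and 67.6 CPM there (62.5 ± 6.16), and Chat 12.4, 7.26 and 11.3 CPM, from 6, 7 and 8 UMIs. Both were called against the other interneurons (adjusted p = 6.1e-09 for Slc5a7 and 1.6e-04 for Chat), as was Slc18a3 (adjusted p = 1.7e-04). The same gate held 1 UMI of Chrm2. Ache was highest in Sst neurons, at 78.6, 107 and 91.6 CPM (log2 difference 1.38, SE 0.17, adjusted p = 6.8e-08).

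Among 8 chaperones and Ly6 proteins, which bind nicotinic receptors or aid their assembly, 2 were higher and 3 lower in glutamatergic neurons, where 49.9% of all genes were called. Lypd1 was at 115, 101 and 96.6 CPM in glutamatergic and 18.7, 26.2 and 20.5 CPM in GABAergic neurons (2.38, SE 0.11, adjusted p = 3.0e-07), and Lypd6 at 2.25, 4.78 and 5.22 against 98.7, 85.1 and 91.5 CPM (−4.41, SE 0.24, adjusted p = 6.4e-07). Each was highest in a single subclass. L5/6 NP neurons held 839.5, 727 and 750.4 CPM of Lypd1 (772 ± 59.4), and Sst neurons held 245 ± 31.1 CPM of Lypd6 (n = 3). Of 15 genes of muscarinic coupling, 8 were higher and 2 lower in glutamatergic neurons (26.5% and 23.4% of all genes). The higher ones included Rgs4, a regulator of G-protein signalling (232, 194 and 161 CPM against 48.2, 40.2 and 42.3 CPM; 2.29, SE 0.10), and Kcnj6, an inwardly rectifying potassium channel (163, 172 and 175 CPM against 59.5, 79.2 and 72.5 CPM; 1.41, SE 0.08). Of 11 other receptor subunits 2 could be tested, and Chrnb3 was called (1.27, SE 0.46, adjusted p = 0.045), from 1, 4 and 6 UMIs in GABAergic neurons. The Chrnb3 call was lost without the diestrus library, with DESeq2 and without library as a block. It was also lost with Leiden clusters, with named subclasses only and when scaled by total UMIs.

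Between libraries, the glutamatergic level of Chrm3 was 178, 331 and 390.5 CPM, in the order estrus, diestrus, male. Chrm2 stood at 36.6, 63.6 and 55.3 CPM, Chrna4 at 12.9, 20.5 and 21.3 CPM, Chrna5 at 3.19, 6.20 and 4.83 CPM and Chrna7 at 11.5, 20.3 and 20.3 CPM. Chrm1 (69.0, 77.6 and 79.4 CPM) and Chrnb2 (7.93, 9.63 and 9.28 CPM) moved less. With 1 library per group there is no replicate check and no test, intervals cover counting error only, and each ratio compares these libraries and not the conditions. Of 8 receptor genes with at least 30 UMIs, 7 were lower in estrus than in diestrus, where 52.3% of all genes were lower, with a median log2 ratio of −0.70 against −0.02 over all genes. Likewise 7 of 8 were lower in estrus than in male (57.0% of all genes), with a median of −0.53 against −0.06. Diestrus was below male in 4 of 8 (59.3% of all genes), with a median of −0.02 against −0.04. The estrus and diestrus libraries enter 2 comparisons each, so these are not independent of each other. The medians take no account of the mix of subclasses, and ratios with subclasses weighted alike are given below.

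The log2 ratio of estrus over diestrus was −0.90 for Chrm3 (interval −0.93 to −0.86), −0.78 for Chrm2 and −0.77 for Chrna7. Over male it was −1.13 for Chrm3 (−1.17 to −1.10), −0.58 for Chrm2 and −0.77 for Chrna7. Chrm4 went the other way, with a log2 ratio without pseudocount of 1.53 over diestrus (0.88 to 2.23) and 1.12 over male (0.41 to 1.88). After the median ratio of genes of like length was taken off, Chrm3 stood at −0.61 and −0.78 and the median of the receptor genes at −0.61 and −0.39. In neurons thinned to 5000 UMIs the ratios over diestrus and over male were −0.84 and −1.08 for Chrm3, −0.53 and −0.28 for Chrm2 and −0.41 and −0.47 for Chrna7. Thinned ratios over diestrus of Chrm1 (−0.32) and Chrnb2 (−0.62) were stronger than the unthinned ones (−0.17 and −0.25). With all subclasses weighted alike, the estrus over diestrus ratio was −0.07 for Chrna4 and 0.09 for Chrna5, and that of Chrm2 was −0.34 (−0.28 over male). Chrm3 stood at −0.75 and Chrna7 at −0.62. L6 CT neurons, where both genes were highest among the gates tested, made up 192 of 1438 glutamatergic cells in estrus and 417 of 1801 in diestrus.

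Within subclasses, Chrm3 was lower in estrus than in diestrus in 12 of 12 with enough UMIs, and 11 of the intervals lay below 0 (log2 ratios −2.74 to −0.09, median −0.64). It was lower in estrus than in male in 11 of 12, with 11 intervals below 0. The subclass with the largest ratio was L5/6 NP, where Chrm3 was lowest. Chrm3 also ran from estrus to male in cells that hold little of it: 1.00, 3.71 and 13.8 CPM in microglia, 1.2, 4.29 and 34.5 CPM in astrocytes and 7.24, 27.4 and 45.0 CPM in oligodendrocyte precursors. The part of free RNA in the Chrm3 ratios was not tested. Chrna7 was lower in estrus than in diestrus in 10 of 11 subclasses (7 intervals below 0) and than in male in 11 of 12 (10 intervals). Chrna5 went the other way in both subclasses that held enough of it: against male, L6 CT neurons were at a log2 ratio without pseudocount of 0.42 (0.03 to 0.80) and L5/6 NP neurons at 1.39 (0.46 to 2.41). Against diestrus the Chrna5 ratios, with pseudocount, were only 0.12 and 0.15, and no interval lay above 0. Chrm2 split, with 6 of 9 subclasses lower than in diestrus (4 intervals) and 5 of 9 lower than in male (4 intervals below 0 and 1 above).

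**Figure D4:**
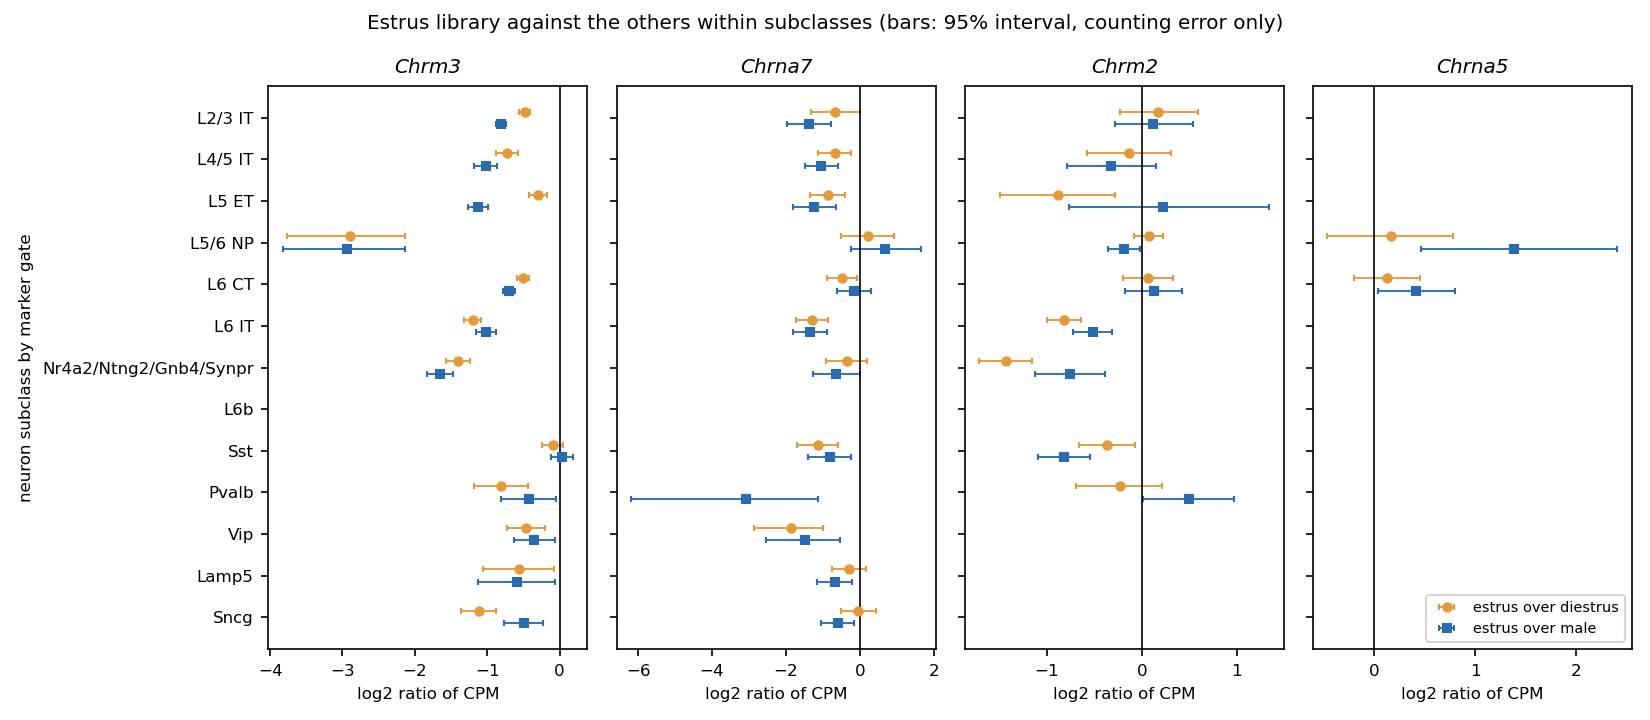
Log2 ratio of CPM, without pseudocount, of the estrus library over diestrus and over male within each subclass with at least 30 UMIs, with exact 95% conditional binomial intervals that cover counting error only. Chrm3 and Chrna7 lie mostly left of 0, Chrm2 lies on both sides, and the Chrna5 points lie right of 0 in its 2 subclasses, with intervals over diestrus that include 0.

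In GABAergic neurons, Chrm3 was at 269.8, 319 and 263 CPM in estrus, diestrus and male, Chrm2 at 49.0, 55.7 and 67.9 CPM, Chrm1 at 22.1, 25.1 and 31.0 CPM and Chrna7 at 42.0, 63.3 and 64.0 CPM. Of the genes with at least 30 UMIs, 6 of 6 were lower in estrus than in diestrus (56.4% of all genes; median log2 ratio −0.18 against −0.07), 6 of 7 lower in estrus than in male (60.0%; −0.46 against −0.12) and 5 of 7 lower in diestrus than in male (55.8%; −0.20 against −0.03). Chrna7 had the ratio furthest from 0 over diestrus, −0.58, with an interval of −0.83 to −0.35 for the ratio without pseudocount. The Chrm3 interval over diestrus also lay below 0, but those of Chrm1, Chrm2, Chrna4 and Chrnb2 included 0. Over male, the intervals of Chrm1, Chrm2 and Chrna7 lay below 0 and the others included it. With subclasses weighted alike, Chrm1 stood at 0.12 and Chrna4 at 0.14 over diestrus, while the other measured genes stayed below 0. The sums of erythroid and oligodendrocyte markers in this gate, given above, were lowest in estrus too, and their part in these ratios was not tested.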

How the data were processed

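The authors deposited UMI counts per gene and cell barcode for 3 libraries. Alignment was to mm10 with Cell Ranger 3.0.2 per the submitters' processing notes, while Cell Ranger 7.0.0 stands in the file headers. No source used here gives the annotation, the use of introns and strand, or the cell calling. Barcodes with at least 500 genes and at most 15% mitochondrial UMIs were kept. Scrublet's automatic limit marked 1 cell in the male library and so had not worked there. A common limit of 0.2, chosen after seeing the data, removed 591, 532 and 584 cells in estrus, diestrus and male. Cells were gated by the mean log level of marker genes, none of them a receptor gene, with a class score of at least 0.5 and a margin of 0.5 (0.25 and 0.25 for subclasses), limits that were also chosen after seeing the data.

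UMIs were summed per library and class or subclass (at least 20 cells in every library) and tested with edgeR 4.0.16 (R 4.3.3), quasi-likelihood, TMM factors and library as a block, over all genes, called at an adjusted p under 0.05. Each library holds every class, so sums from the same library are paired by construction. Levels are CPM of nuclear UMIs, ratios use a pseudocount of 1 CPM, and Poisson and conditional binomial intervals are exact at 95% and cover counting error only. The members, gene lists and tests were chosen with earlier results of these data known. All 10 receptor genes were named. Of the other acetylcholine signalling genes, up to 4 called genes with the largest change in each direction were named, and Chat, Slc5a7, Slc18a3 and Ache in any case. The 3 most similar genes were named for each receptor gene reaching 20 CPM in a subclass. Alternatives were DESeq2 1.42.0, no filter on low counts, no library block, each library left out, stricter gates, a 5000-UMI minimum, Leiden clusters made without the receptor genes, no doublet removal and, added after seeing the data, named subclasses only and scaling by total UMIs. Library ratios were also computed with TMM factors, thinned UMIs, subclasses weighted alike and a correction for gene length. Positions are from GENCODE on GRCm38, which matched 32158 of the 32285 gene IDs. Scripts ran in Python 3.11.15 with scanpy 1.11.5 and were tested on simulated data.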

Additional observations from a re-analysis of the deposited data

Results flagged for a closer look

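In 5 cases the ratio between a pair of libraries had intervals on opposite sides of 0 in different subclasses. With 1 library per group the differences between subclasses were not tested, and the intervals cover counting error only. Chrm2 in diestrus over male had a log2 ratio of 1.00 in L5 ET neurons (0.17 to 2.18) and −0.45 in Sst neurons (−0.72 to −0.19). Chrm2 in estrus over male was at 0.49 in Pvalb (0.01 to 0.97) and −0.81 in Sst neurons (−1.10 to −0.54). Chrm3 in diestrus over male was at 0.62 in Sncg (0.41 to 0.85) and −0.84 in L5 ET neurons (−0.97 to −0.70). Chrna4 in estrus over diestrus was at 0.28 in L6 CT neurons (0.07 to 0.49) and −0.92 in the Nr4a2 gate (−1.83 to −0.24). Chrnb2 in estrus over male was at 0.49 in L6 CT (0.0027 to 1.10) and −0.92 in Sst neurons (−1.90 to −0.13).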

How the results depend on the processing

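Without library as a replicate block, 2 of the 4 receptor calls between classes, 35 of the 44 subclass calls and 16 of the 21 calls among other acetylcholine signalling genes were made. Leaving out 1 library gave 2 to 6 calls between classes, 35 to 49 over subclasses and 19 to 22 among the signalling genes. No subclass call took the other sign under any alternative run. With Leiden clusters 32 of the 44 subclass calls were made. Those lost were Chrm2 in L6 CT, Chrm3 in L4/5 IT and Chrna4 in Lamp5 and Vip neurons. The remainder lay in Pvalb and Sncg neurons, which were too few to fit, and in the Nr4a2 gate, for which no cluster was named. Of the 297 cells of the Nr4a2 gate, 85 fell into L4/5 IT, 61 into L6 IT and 31 into L2/3 IT clusters, and 111 into clusters without a name. The uncalled class difference of Chrm2 turned to 0.023 without the filter on low counts and ran from −0.239 to 0.077 with 1 library left out, and that of Chrm3 from −0.14 to 0.436. In glutamatergic neurons with subclasses weighted alike, the Chrna5 ratio turned to 0.085 for estrus over diestrus and 0.48 for estrus over male. In GABAergic neurons Chrm3 turned to 0.25 for estrus over diestrus after correction for gene length, and with Leiden clusters Chrm1 turned to 0.12 for estrus over male and 0.13 for diestrus over male. The number of receptor genes lower in diestrus than in male in glutamatergic neurons was 2 with TMM factors and 2 after length correction, against 4. That lower in estrus than in diestrus in GABAergic neurons was 3 after thinning, against 6. The cause of these changes was not tested. Low counts limit what can be read of Chrm4, Chrna3 and Chrna6, and of Chrna5 outside L6 CT and L5/6 NP neurons.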
